A study of Mus musculus with 6 samples.

Results

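A set of 10 genes of the selenoprotein system was followed here through 6 RNA-seq libraries labelled as mouse kidney tissue. They are 6 genes that encode selenoproteins (Gpx4, Gpx1, Selenot, Selenos, Selenok and Selenow), 3 that help to build selenocysteine into proteins (Secisbp2, Sepsecs and Eefsec), and Sephs2, which belongs to both kinds. The 10 were chosen by name, and all 10 had a row among the 25189 distinct gene symbols of the deposited count table. They were picked with the difference between the treated and control libraries already known, so that difference is described for them and is not offered as evidence about them. All libraries are labelled C57BL/6, wild type and male, and were taken on day 2 after ischaemia and reperfusion of the kidney (I/R), in which its blood flow is stopped and restored. One group of 3 libraries had I/R alone. The other group of 3 had I/R and chemerin-9 (C9), a short peptide from the end of chemerin that acts on this protein's receptor. In the title of the series stands ferroptosis, a cell death driven by iron and oxidised lipids, and Gpx4 is the enzyme best known for holding it back. No dose or age is given in the sources used here, and the labels do not tie libraries to separate mice, so p-values measure only the spread between these libraries.

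Several facts about the libraries bear on what follows. The libraries held 11217252 to 16938301 counts. The titles of the treated libraries all name C9, while their treatment field reads C9, C10 and C11 in turn. Their columns carry the letters IC, which were read as I/R with C9 although the labels name these libraries by the letter S, and every statement on chemerin-9 rests on that reading. Each of the 6 libraries has its own batch value in the labels, so batch and treatment cannot be told apart. I/R replicate 3 stood apart from its group, as its chi-square per degree of freedom was 6.16 and 5.61 against the other I/R libraries, while between those it was 1.83. The share of counts on an 18S RNA gene was 0.381% to 0.517% in I/R, highest in replicate 3, and 0.261% to 0.306% with chemerin-9. Defining kidney markers were close to absent. The summed level of the 6 nephron markers measured was 6.97 to 7.28 CPM (the usual unit of counts scaled to library size, here with TMM-adjusted sizes) in I/R against 7.22 to 8.32 CPM in treated libraries, with Aqp2 of the collecting duct at 0 in at least 1 library of each group. The 5 vessel, leukocyte and red cell markers summed to 1.76 to 3.19 and 2.18 to 3.46 CPM, with Hbb-bs at 0 throughout. The 5 markers of dividing and matrix-producing cells summed to 4080 to 4169 CPM in I/R against 3902 to 3968 CPM in treated libraries. Of these, 3 (Mki67, Col1a2 and Acta2) fell at an edgeR adjusted p under 0.05, as did 26.1% of all genes tested. Top2a (log2 fold change 0.0037) and Col1a1 (0.054) did not pass. The part of these shifts in the results below was not tested. In bulk RNA, fewer cells of a type and less RNA per cell cannot be told apart.

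Selenoproteins carry selenocysteine, an amino acid with selenium in place of the sulphur of cysteine, usually in the active site of an enzyme that handles peroxides or disulphides. Selenocysteine is written in the messenger RNA as UGA, which is otherwise a stop codon. A hairpin in the 3′ untranslated region, the SECIS element, is bound by SECISBP2, and the elongation factor EEFSEC brings the selenocysteine tRNA to the ribosome. That tRNA is charged with serine, phosphorylated by PSTK and converted by SEPSECS with selenophosphate, which SEPHS2 makes. When decoding fails, UGA is read as a stop, and a stop well ahead of the last exon junction can mark the messenger for nonsense-mediated decay. In the kidney, selenoproteins are known for their work against peroxides, and GPX4 for reducing lipid peroxides within membranes.

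The 7 selenoprotein genes of the 10 are set out here by the codon that the whole system serves, since its place in the frame differs between them. Each line is the coding strand of the GENCODE M21 transcript (GRCm38), 5′ to 3′, with the in-frame selenocysteine codon in capitals and up to 12 coding bases on each side.
Gpx4: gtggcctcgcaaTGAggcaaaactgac
Gpx1: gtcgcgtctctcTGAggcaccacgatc
Selenot: atttgtgtatccTGAgggtaccggcgg
Selenow: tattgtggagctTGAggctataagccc
Sephs2: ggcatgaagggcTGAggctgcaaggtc
Selenos: tcatctggcggcTGAaactaa
Selenok: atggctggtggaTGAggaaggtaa

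In Gpx4 the codon is number 73 of 197 and lies 342 bases before the last exon junction (the gene is at chromosome 10, 80047166 to 80056439, forward strand). In Gpx1 it is number 47 of 201 and 105 bases before the only junction (chromosome 9, 108338903 to 108340343). Selenot has it at codon 49 of 195 (chromosome 3, 58576636 to 58593133) and Selenow at codon 13 of 88 (chromosome 7, 15917208 to 15922402), at 470 and 243 bases before the last junction. Selenos and Selenok carry it at the very end of the frame instead. It is codon 189 of 190 in Selenos, within the last exon (chromosome 7, 66079649 to 66089405). In Selenok it is codon 92 of 94, only 5 bases before the last junction (chromosome 14, 29968308 to 29975662). The lines of these 2 genes are shorter because the frame ends there, and they close with its stop codon. Sephs2 has a single exon, so it has no junction at all (chromosome 7, 127271879 to 127274055).

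Of the 7 selenoprotein genes, 3 were lower with chemerin-9, 2 were higher on average, 1 (Sephs2) overlapped between the groups and 1 (Gpx1) had almost no counts. Gpx4, Selenos and Selenok were lower in every treated library than in any I/R library. Selenot was higher in every treated library, and Selenow was higher on average with overlapping groups. In the 9 tested, the groups did not overlap in 6, 3 higher and 3 lower, against 58.5% of all genes tested, 29.3% higher and 29.2% lower. Of the 9 genes of the 10 that passed the filter on low counts, 6 had an edgeR adjusted p under 0.05, 3 higher and 3 lower. Among all 14184 genes tested 51.7% did so, 25.6% higher and 26.1% lower, and since the genes were chosen on this comparison nothing is read from their count.

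**Figure D1:**
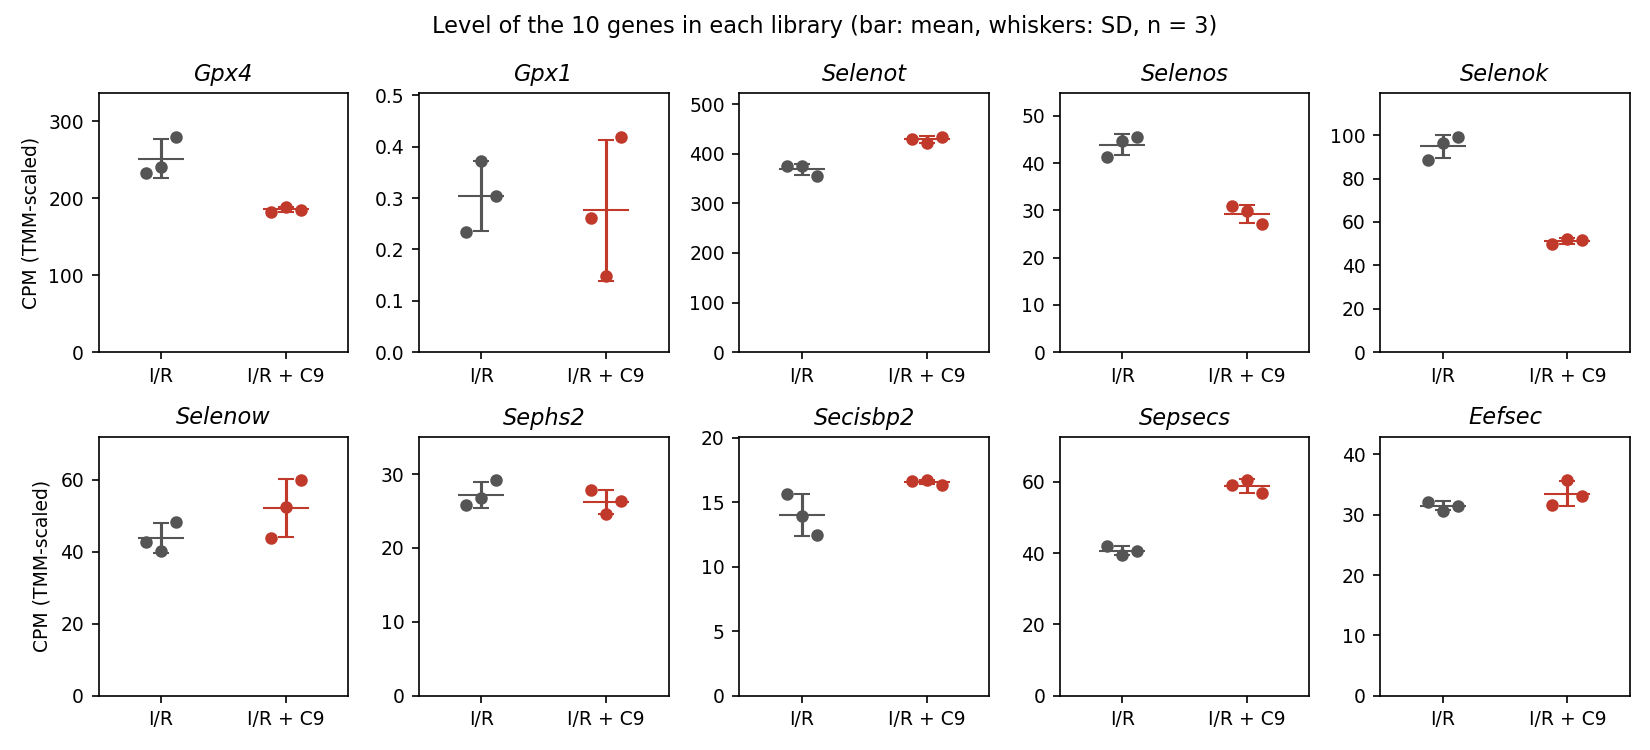
Level of each of the 10 genes in each library, in CPM on a linear axis that starts at 0 and differs between panels. Points are libraries (replicates 1 to 3 from left to right), horizontal bars are means and whiskers are SD over 3 libraries, in grey for I/R and in red for I/R with chemerin-9. Gpx4, Selenos and Selenok lie lower in all 3 treated libraries, Selenot and Sepsecs lie higher, and Gpx1 stays below 0.5 CPM.

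Gpx4 encodes the glutathione peroxidase that reduces phospholipid hydroperoxides. Its level was 233, 241 and 279.9 CPM in the I/R libraries and 182, 189 and 185 CPM with chemerin-9. The treated libraries were close to each other, while I/R replicate 3 was above the other 2 of its group. The means were 251 ± 25.0 and 185 ± 3.05 CPM (SD, n = 3 each), a log2 fold change of -0.44 (standard error 0.055), or 26.3% lower. Without I/R replicate 3 it was -0.36. It was also smaller, at -0.23, once the trend of each library on GC content and transcript length was removed, which is the alternative that moved it most. The Gpx4 transcript is 58.8% GC and 959 bases long. Reads of Gpx4 are uncertain because the pseudogene Gpx4-ps2 matches it at 99.7% identity. That pseudogene held 44.5, 45.8 and 46.3 CPM in I/R and 40.6, 35.4 and 32.4 CPM with chemerin-9, which is -0.34 in log2 at an edgeR adjusted p of 0.00162 (1.43e-05 to 0.149 over its alternatives, the highest with GC and length trends removed). Gene counts do not separate the mitochondrial, cytosolic and nuclear forms of GPX4, which come from different starts of the same gene.

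Gpx1, the soluble glutathione peroxidase that reduces hydrogen peroxide and is abundant in many tissues, had almost no counts. Its raw counts were 3, 5 and 5 in I/R and 3, 2 and 6 with chemerin-9. That is 13 and 11 counts in all, or 0.303 ± 0.0683 and 0.276 ± 0.137 CPM (SD, n = 3 each). With so few counts no difference between the groups could be detected, and no fold change is given. No other gene of GENCODE M21 overlaps it, and no transcript of another gene matched it at 95% identity across 50% of the shorter sequence. Whether the counting or the annotation left out reads of Gpx1 cannot be settled from the table, so its counts are no measure of how much was expressed. The plasma glutathione peroxidase Gpx3, known as a product of the proximal tubule, was likewise near the floor with 13 and 22 counts. Gpx4 was therefore the only one of these 3 selenium-dependent peroxidases with more than 22 counted reads in a group.

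Selenok and Selenos encode small membrane proteins of the endoplasmic reticulum that take part in the disposal of misfolded proteins, and SELENOK also assists the palmitoylating enzyme ZDHHC6. Selenok held 88.8, 96.3 and 99.3 CPM in I/R and 49.8, 52.1 and 51.8 CPM with chemerin-9, the largest log2 difference among the 9 genes tested. Its log2 fold change was -0.89 (standard error 0.054), or 45.9% lower. Selenos held 41.4, 44.8 and 45.6 CPM in I/R and 30.9, 29.9 and 27.1 CPM with chemerin-9. Its log2 fold change was -0.59 (standard error 0.071), or 33.6% lower, and again no treated library reached the lowest I/R library. Both were close to these values when GC and length trends were removed, at -0.92 for Selenok and -0.57 for Selenos. Selenok has pseudogene copies of over 95% identity, but the 2 of these with a row held 5 and 11 counts over all 6 libraries.

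SELENOT, a thioredoxin-like protein of the same membrane, did not share that direction. Selenot held 376, 375 and 356 CPM in I/R and 430.3, 422 and 435 CPM with chemerin-9, higher in each treated library. The log2 fold change was 0.22 (standard error 0.034), or 16.3% higher, and 0.081 with GC and length trends removed. Its transcript is the poorest in GC of the 10, at 39.3%. Selenok relative to Selenot, as a ratio of CPM, went from 0.236, 0.257 and 0.279 in I/R to 0.116, 0.123 and 0.119 with chemerin-9.

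Selenow encodes a small thioredoxin-like protein of the cytosol. It held 42.7, 40.2 and 48.4 CPM in I/R and 43.9, 52.5 and 59.9 CPM with chemerin-9. The range of the treated libraries exceeded the distance between the group means, and 1 treated library lay inside the I/R range. The log2 fold change of 0.25 (standard error 0.096) ranged from 0.14 without chemerin-9 replicate 3 to 0.36 without chemerin-9 replicate 1, and was 0.50 with GC and length trends removed. It no longer passed the threshold without I/R replicate 1 (0.23), I/R replicate 2 (0.19), chemerin-9 replicate 2 (0.25) or chemerin-9 replicate 3.

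Of the 4 genes for building in selenocysteine, Sepsecs was clearly higher with chemerin-9 and the other 3 lay within 0.25 of 0 on the log2 scale. Sepsecs, the synthase that completes the selenocysteine tRNA (chromosome 5, 52640087 to 52669708), held 41.9, 39.6 and 40.7 CPM in I/R and 59.3, 60.5 and 56.8 CPM with chemerin-9. All treated libraries were above all I/R libraries. The log2 fold change was 0.53 (standard error 0.057), or 44.5% higher, and 0.42 with GC and length trends removed. Secisbp2, the SECIS-binding protein (chromosome 13, 51651697 to 51684044), held 15.7, 14.0 and 12.4 CPM against 16.6, 16.7 and 16.4 CPM. The groups did not overlap, but the gene did not pass the threshold (log2 fold change 0.25, standard error 0.11). The value ran from 0.16 without I/R replicate 3 to 0.33 without I/R replicate 1, and passed in 4 of 14 alternatives. Eefsec, the dedicated elongation factor (chromosome 6, 88257334 to 88446539), held 32.2, 30.7 and 31.5 CPM against 31.6, 35.7 and 33.1 CPM. Eefsec overlaps 3 small genes and Sephs2 overlaps Gm44729 on the other strand, and it is not stated whether strand was used in counting. Sephs2, the selenophosphate synthetase, held 25.8, 26.7 and 29.2 CPM against 27.9, 24.5 and 26.3 CPM. For Eefsec and Sephs2 the groups overlapped, with log2 fold changes of 0.092 (standard error 0.070) for Eefsec and -0.059 (standard error 0.081) for Sephs2.

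Set beside each other, the selenoproteins spread in both directions while the incorporation genes did not go below -0.059. The 6 selenoprotein genes tested, Sephs2 included, had log2 fold changes from -0.89 to 0.25 with a median of -0.25. The 4 incorporation genes, Sephs2 included again, ran from -0.059 to 0.53 with a median of 0.17. The median over all genes tested was -0.0037. Summed over the 7 selenoprotein genes, the level was 808, 824 and 859 CPM in I/R and 766, 769.8 and 785 CPM with chemerin-9. Summed over the 4 incorporation genes it was 115, 111 and 114 CPM against 135, 138 and 133 CPM. The ratio of Gpx4 to Sepsecs in CPM was 5.57, 6.09 and 6.87 in I/R and 3.08, 3.12 and 3.26 with chemerin-9. The ranges and medians of the chosen genes, like these sums and ratios, rest on genes chosen with their difference known and were not tested.

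Levels can be compared between genes only per length, here as CPM per kilobase of 1 representative transcript. Gpx1 is not placed in this order, since its counts are no measure of how much was expressed. On that scale Gpx4 was the highest of the rest of the 10 in both groups, at 262 ± 26.1 in I/R and 193 ± 3.18 with chemerin-9 (SD, n = 3 each). Selenot followed at 117 ± 3.53 and 136 ± 2.03 (SD, n = 3 each). Selenow and Selenok came next in I/R, at 59.4 ± 5.69 and 56.5 ± 3.24, and their libraries overlapped. With chemerin-9 they were apart, at 70.8 ± 10.9 and 30.5 ± 0.733. Selenos came after these 4 in both groups. The incorporation genes were all lower, from 12.5 ± 0.811 for Sephs2 in I/R down to 4.21 ± 0.484 for Secisbp2. Sephs2 and Eefsec overlapped in both groups, and with chemerin-9 Sepsecs reached 11.2 ± 0.359 and overlapped Sephs2.

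**Figure D2:**
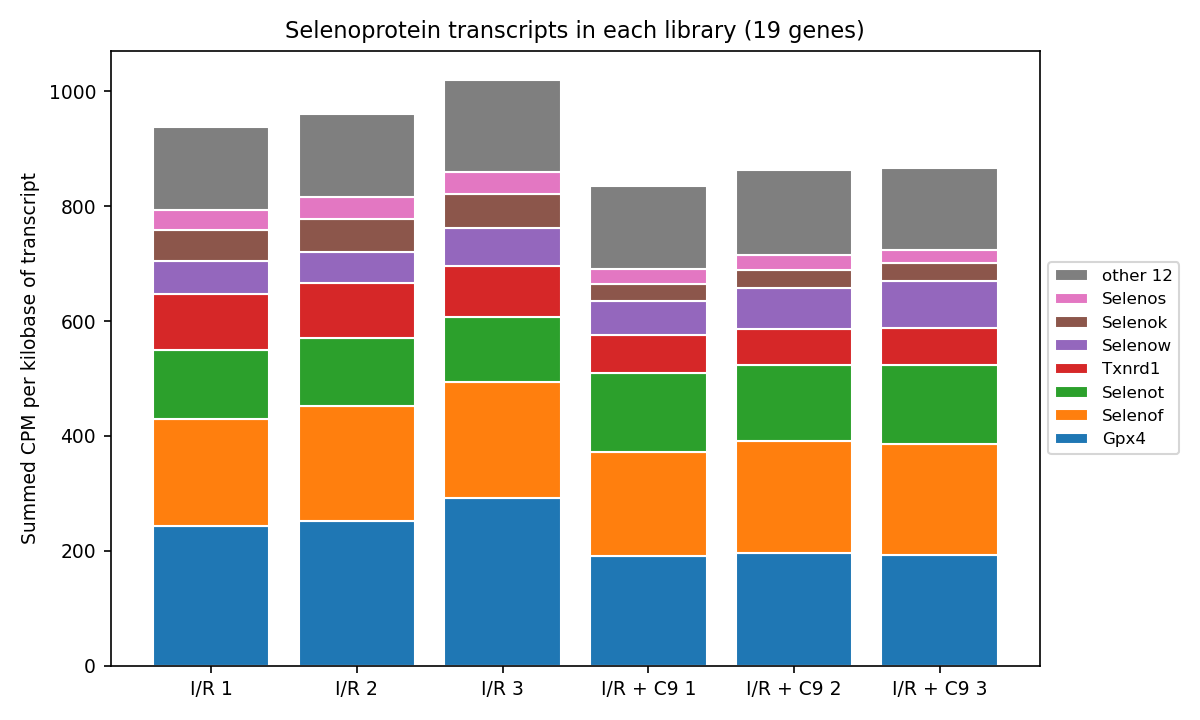
Summed level of the 19 selenoprotein genes with a row in each library, in CPM per kilobase of transcript, stacked by gene from 0. The total was 938 to 1020 in I/R against 836 to 866 in treated libraries, and the Gpx4, Txnrd1 and Selenok segments are thinner in the treated libraries while that of Selenot is thicker.

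Within all 19 selenoprotein genes with a row, Gpx4 made up 25.9% to 28.6% of the summed CPM per kilobase in I/R against 22.3% to 22.8% in treated libraries. Gpx1 is among the 19, and whether its reads were left out is not known, so these are shares of the counted reads only. The share of Selenok was 5.64% to 5.97% and then 3.55% to 3.60%. That of Selenot was 11.1% to 12.7% and then 15.5% to 16.3%. Outside the 10, the share of Txnrd1 was 8.64% to 10.4% and then 7.24% to 7.93%, and that of Selenof 19.9% to 20.8% and then 21.8% to 22.5%. The groups did not overlap in any of these shares. Gpx4, Selenok and Selenot were chosen with their difference known, and the shares were not tested. Selenof rose in share while its log2 fold change was -0.049, as a share also depends on the summed total.

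The wider family was described from lists of 24 selenoproteins and 13 incorporation genes. Of the 17 selenoproteins outside the 10 genes, 12 had a row and 11 passed the count filter, while Gpx2, Dio1, Dio2, Dio3 and Selenov were not analysed here. Among the 11 tested, 1 rose and 2 fell (5 passed with GC and length trends removed), against 51.7% of all genes called, with a median log2 fold change of -0.049. Txnrd1, the cytosolic thioredoxin reductase, fell from 332 ± 18.2 to 227 ± 6.80 CPM, which is -0.55 ± 0.042 (standard error) in log2 with an edgeR adjusted p of 6.98e-08. Selenop, the secreted selenium carrier, rose from 22.8 ± 1.68 to 27.9 ± 1.22 CPM, which is 0.29 in log2 with an edgeR adjusted p of 0.00798. Msrb1, which repairs oxidised methionine, fell from 21.9 ± 0.866 to 18.5 ± 1.82 CPM, which is -0.24 in log2 with an edgeR adjusted p of 0.0403. The call of Msrb1 was lost with upper quartile factors (-0.23), DESeq2 (-0.24) and GC and length trends removed (-0.12), and without I/R replicate 1 (-0.25), I/R replicate 3 (-0.21), chemerin-9 replicate 1 (-0.24) or chemerin-9 replicate 3 (-0.18), over adjusted p values of 0.0191 to 0.257 across its alternatives. Txnrd2, the mitochondrial thioredoxin reductase, was at 13.0 ± 0.474 and 15.4 ± 0.258 CPM, higher in every treated library. It passed in 4 of 14 alternatives but did not pass in the main fit (adjusted p = 0.0517, edgeR). The other 7 (Txnrd3, Selenof, Selenoh, Selenoi, Selenom, Selenon and Selenoo) did not pass either, with log2 fold changes from -0.22 for Selenoh to 0.096 for Selenoo. With GC and length trends removed the sign turned for Selenom (0.14) and Selenoi (-0.11), and Selenoi then passed as lower.

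Of the 9 further incorporation genes, all tested, 2 rose and 1 fell, against 51.7% of all genes called, 25.6% higher and 26.1% lower. Their median log2 fold change was 0.024. With GC and length trends removed 5 passed, 2 higher and 3 lower. Eif4a3, a helicase of the exon junction complex that also binds some SECIS elements, rose from 114 ± 1.24 to 145 ± 3.05 CPM, which is 0.35 in log2 with an edgeR adjusted p of 3.07e-06. Sars, which loads serine on the tRNA, rose from 611 ± 23.5 to 675 ± 15.8 CPM, which is 0.14 in log2 with an edgeR adjusted p of 0.00255. Rpl30, a ribosomal protein that binds SECIS elements, fell from 184 ± 58.8 to 121 ± 12.4 CPM, which is -0.61 in log2 with an edgeR adjusted p of 0.00295. The I/R values were 149, 152 and 252 CPM, the last in replicate 3, and its log2 fold change without that library was -0.31. With DESeq2 its adjusted p was 0.0624, and near-identical pseudogenes make its reads uncertain, as they do for Eif4a3. Pstk, the kinase of the pathway, was at 18.9 ± 0.504 and 16.2 ± 0.343 CPM and missed the threshold (edgeR adjusted p of 0.0515, -0.22 in log2). Secisbp2l, Trnau1ap, Ncl, Trit1 and Alkbh8 did not pass, with log2 fold changes from -0.042 to 0.15. The sign of all but Trit1 turned with GC and length trends removed, where Ncl (-0.12) and Secisbp2l (-0.089) passed as lower.

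**Figure D3:**
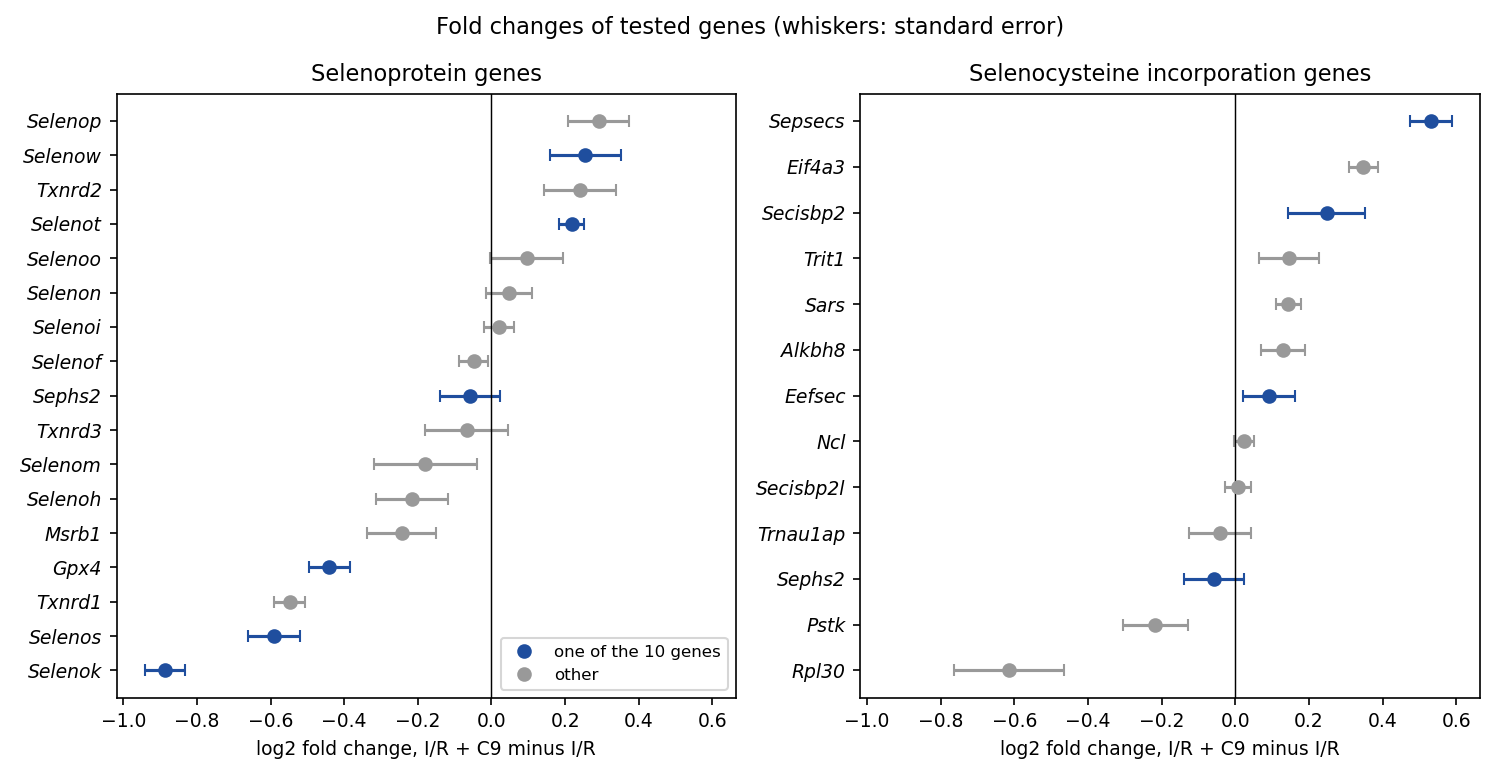
Log2 fold change (I/R with chemerin-9 minus I/R) of every tested selenoprotein gene on the left and every tested incorporation gene on the right, with standard errors as whiskers. The genes among the 10 are blue and the others grey, and Sephs2 appears in both panels. The selenoproteins extend from -0.89 for Selenok to 0.29 for Selenop, and the incorporation genes from -0.61 for Rpl30 to 0.53 for Sepsecs.

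The place of the selenocysteine codon was set beside these fold changes, since it decides whether a failed decoding leaves a stop ahead of the last junction. In 8 of the 17 tested selenoprotein genes the codon lies more than 50 bases before that junction. Their median log2 fold change was -0.0011, from -0.44 for Gpx4 to 0.29 for Selenop, with 3 higher and 1 lower by the test. In the other 9 the codon is nearer, in the last exon or in a gene without introns. Their median was -0.067, from -0.89 for Selenok to 0.24 for Txnrd2, with 4 lower and 0 higher. Those 4 were Selenok, Selenos, Txnrd1 and Msrb1, and the call of Msrb1 failed in 7 of 14 alternatives. That of Selenow, 1 of the 3 higher in the first class, failed in 4 of 14. The 0 higher in the second class rests on Txnrd2 missing the threshold (edgeR adjusted p of 0.0517). It was higher in every treated library and passed in 4 of 14 alternatives. The share called was 50% in the first class and 44.4% in the second, against 51.7% of all genes, 25.6% higher and 26.1% lower. Neither share called sets its class apart. Of the 4 lower genes, Txnrd1 shares with Selenos a selenocysteine codon placed 1 codon before the stop, as do Txnrd2 and Txnrd3, which did not pass. The 2 classes overlapped and their difference, also by direction, was not tested. Both classes hold genes chosen with their difference known.

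**Figure D4:**
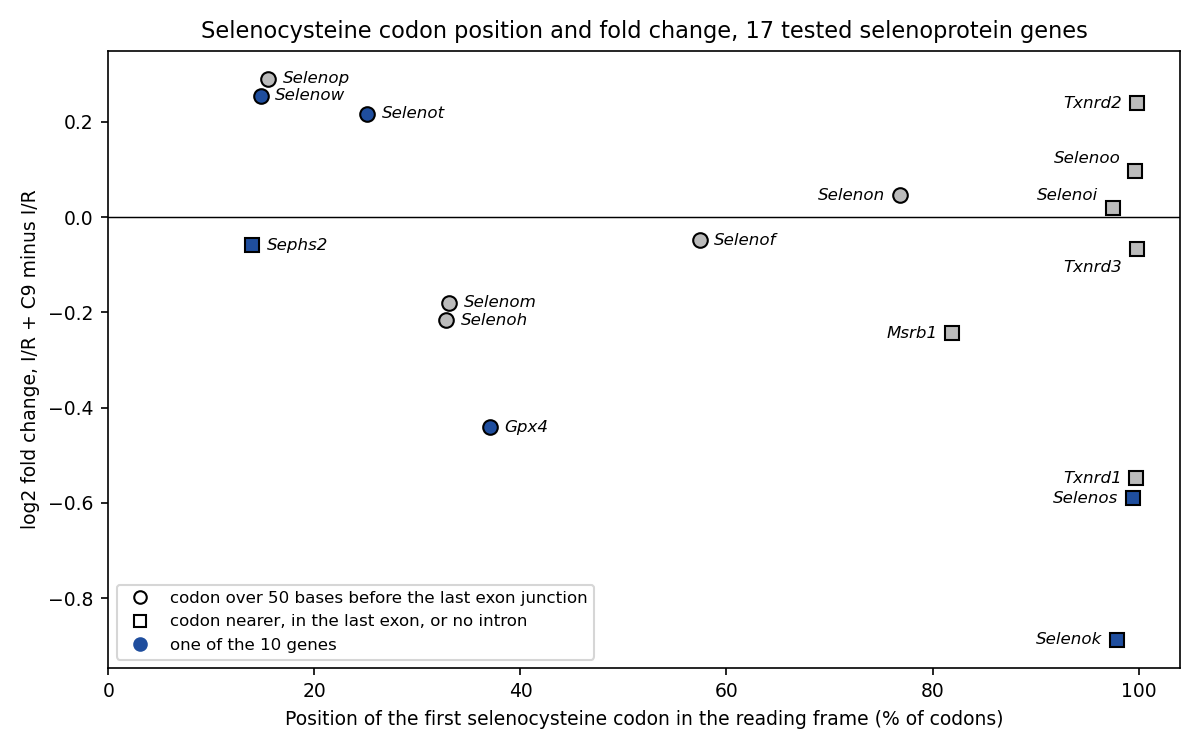
Log2 fold change against the position of the first selenocysteine codon, as a percentage of the reading frame, for the 17 tested selenoprotein genes. Circles have the codon more than 50 bases before the last exon junction, squares do not, and blue marks genes among the 10. Genes with the codon at the end of the frame run from -0.89 for Selenok to 0.24 for Txnrd2.

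Some selenoproteins have a close relative without selenocysteine, whose translation needs no such machinery. The lines below give the codon that pairs with the selenocysteine codon of Gpx4 or Sephs2 in a protein alignment, in capitals, with 12 coding bases on each side, for comparison with the lines of Gpx4 and Sephs2 above.
Gpx7: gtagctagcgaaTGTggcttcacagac
Gpx8: gtggctagtgacTGCcgcttcacagac
Sephs1: gaactgaaaggcACAggctgcaaagtg

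In Gpx7 and Gpx8, peroxidases of the endoplasmic reticulum, the paired codon encodes cysteine, and in Sephs1 it encodes threonine. With selenocysteine read as cysteine, aligned residues were identical between Gpx4 and Gpx8 in 43.4% of positions and between Sephs2 and Sephs1 in 75.4%. Gpx8 fell from 50.5 ± 1.38 to 45.0 ± 1.02 CPM, which is -0.17 in log2 with an edgeR adjusted p of 0.0227, a call lost with DESeq2 (-0.17) and without I/R replicate 3 (-0.15), chemerin-9 replicate 1 (-0.15) or chemerin-9 replicate 2 (-0.17), over adjusted p values of 0.0160 to 0.0741 across its alternatives. Gpx7 was near the floor, with 8 and 18 counts. Sephs1 was at 117 ± 2.70 and 125 ± 6.00 CPM and did not pass (adjusted p = 0.115, edgeR), and neither did Msrb3, the cysteine relative of Msrb1 (adjusted p = 0.420, edgeR).

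Among 6 genes of selenium supply, 5 were tested, 1 rose and 1 fell, or 40% called against 51.7% of all genes. Scly, the lyase that frees selenium from selenocysteine for reuse, rose from 15.4 ± 0.749 to 22.5 ± 1.16 CPM, which is 0.54 in log2 with an edgeR adjusted p of 1.43e-04. Lrp8, a receptor that takes up selenoprotein P, fell from 50.4 ± 1.37 to 37.5 ± 0.208 CPM, which is -0.43 in log2 with an edgeR adjusted p of 2.03e-05. Lrp2, the receptor for selenoprotein P in the proximal tubule, was at 3.19 ± 0.531 and 3.37 ± 0.747 CPM and did not pass (adjusted p = 0.789, edgeR), nor did Selenbp1, a selenium-binding protein, and Sephs1. Selenbp2, the gene of this list that was not tested, was near the floor with 14 and 20 counts. Its transcript matches that of Selenbp1 at 98.5% identity, which makes the reads of both uncertain.

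The neighbouring lists were read in the same way. Of 9 tested partners of SELENOS and SELENOK in the endoplasmic reticulum, 2 rose and 3 fell, which at 55.6% called is near the 51.7% of all genes. Syvn1, the ubiquitin ligase of protein disposal, fell by 0.84 on the log2 scale (adjusted p = 5.59e-08, edgeR), and Sel1l, its adaptor, by 0.57 (adjusted p = 1.86e-08, edgeR). The call of Vcp, which also fell (-0.088, adjusted p = 0.0302, edgeR), failed in 5 of 14 alternatives. A copy of 99.05% identity, Vcp-rs, makes the reads of Vcp uncertain. Ubxn8 rose by 0.97 (adjusted p = 2.33e-05, edgeR) and Zdhhc6, the partner enzyme of SELENOK, by 0.20 (adjusted p = 9.77e-04, edgeR), opposite in sign to Selenok itself. Of 10 genes of glutathione supply, which feeds GPX4, 2 rose and 1 fell, or 30% called against the same 51.7%. Slc7a11, the cystine importer, rose by 0.53 and its partner chain Slc3a2 by 0.19 (adjusted p = 1.61e-08 and 2.35e-04, edgeR), while Gclc, Gclm, Gss and Gsr, which make and recycle glutathione, did not pass. Gclc (-0.12) and Gclm (-0.095) were lower, not higher, and kept that sign in all 14 alternatives. Removing GC and length trends brought both past the threshold, as leaving out I/R replicate 3 did for Gclm. The call that fell, Ggt1 of glutathione breakdown (-1.01, adjusted p = 0.0412, edgeR), rested on 82 and 38 counts and failed in 6 of 14 alternatives (adjusted p from 0.0110 to 0.151). Of 10 genes of nonsense-mediated decay, 7 rose and 1 fell, against 25.6% higher and 26.1% lower over all genes, a count that was not tested for the list. Among those that rose were Smg5 (0.38, adjusted p = 7.10e-07, edgeR), Smg9 (0.42, adjusted p = 0.00196, edgeR) and Upf2 (0.25, adjusted p = 7.88e-05, edgeR). The calls of Upf1, Smg6 and Smg1 in that list failed in 8, 7 and 2 of 14 alternatives. The median log2 fold change was 0.18 there, -0.078 for the partners and -0.068 for glutathione supply, against -0.0037 over all genes tested.

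The 5 genes whose level most resembled that of Gpx4 across the 6 libraries, out of 9354 compared, were Glul, Sod1, Rpl27a, H1f0 and Aunip. Pearson's r with Gpx4 on log2 CPM was between 0.997 and 0.998 over the 6 libraries, and between 0.974 and 0.996 after each group's mean was subtracted. All 5 were highest in I/R replicate 3. Sod1, the cytosolic superoxide dismutase, held 118, 129 and 164 CPM in I/R and 83.7, 89.7 and 86.0 CPM with chemerin-9, the same order of libraries as Gpx4. Glul, glutamine synthetase, held 49.6, 50.2 and 55.3 CPM against 43.6, 44.4 and 43.7 CPM. The likeness therefore includes the height of 1 I/R library as well as the difference between the groups.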

How the data were processed

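RNA libraries were made with a stranded mRNA kit, per the labels' protocols. HISAT2, HTSeq and DESeq 1.18.1 and the build mm10 are named, per the submitters' processing notes. Neither the annotation release nor the strand setting is stated there. The deposited table holds the authors' raw counts per gene, beside the authors' FDR, p-value, ratio of groups and its log2, as deposited. Over the 9 tested genes of the 10, the log2 fold changes of the authors' deposited table were within 0.0055 of those here. In the authors' deposited table the FDR of 5 of them was under 0.05, against 6 here, the difference being Selenow with a deposited FDR of 0.0529. Of 25216 rows, 27 repeats were removed. Gene starts matched GENCODE M21 (GRCm38) in 97.5% of the 22525 genes found there by identifier.

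Counts were tested with edgeR 4.0.16 (R 4.3.3), with TMM factors, filterByExpr, a quasi-likelihood fit on group and Benjamini-Hochberg adjustment over 14184 genes at 0.05. The fit was tested on simulated data. Alternatives were RLE and upper quartile factors, DESeq2 1.42.0, limma-voom (limma 3.58.1), other filters, a replicate block, a GC and length correction (mgcv 1.9.3, 95.3% of tested genes), and each library left out. No pair of libraries held the same counts (chi-square per degree of freedom within groups 1.83 to 6.16). These values cannot tell whether the libraries came from separate mice. Lengths, GC and codons come from 1 GENCODE M21 transcript per gene (coding, basic, principal, then longest). Copies were searched with BLAST 2.17.0 at 95% identity over 50% of the shorter transcript.

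The members and lists were chosen with earlier results of these data known. All 10 genes and all measured genes of the selenoprotein, incorporation, selenium supply and selenium-free relative lists are named. Of other lists, up to 4 genes with the smallest p are named, plus genes whose role or alternatives are described. The 5 genes most correlated with Gpx4 (mean log2 CPM of at least 3) are named too. Some listed genes are counted in their lists but not reported by name here.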

Additional observations from a re-analysis of the deposited data

How the results depend on the processing

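Gpx1, Gpx3, Gpx7 and Selenbp2 stayed under the count filter, which limits what can be said of them. The number of genes called over the whole table was 7336 and ran from 6312 with DESeq2 to 7747 with no filter on low counts, and from 6399 to 7323 with 1 library left out. The number called among the 10 was 6 and ran from 5 to 8, the 8 with GC and length trends removed, where Secisbp2 (0.27) and Eefsec (0.18) joined. That setting also gave 5 calls in place of 3 among the other selenoproteins and 5 in place of 3 among the other incorporation genes. It turned the sign of Selenoi (-0.11), Selenom (0.14), Secisbp2l (-0.089), Trnau1ap (0.080), Ncl (-0.12), Alkbh8 (-0.039), Sephs1 (-0.0040), Msrb3 (-0.036), Upf3b (-0.032) and Smg1 (-0.030), of which Smg1 alone passed the threshold without it. The cause was not tested. Values near 0 also crossed it with 1 library left out, running from -0.0056 to 0.050 for Selenoi, -0.014 to 0.092 for Selenon, -0.0056 to 0.024 for Secisbp2l, -0.10 to 0.010 for Trnau1ap, -0.0058 to 0.028 for Chac1 and -0.048 to 0.018 for Ube2j1. With 1 library left out the other selenoproteins had 2 to 3 calls and the other incorporation genes 3. None of the 9 tested genes of the 10 changed sign under any of the 14 alternatives. With the replicate number as a block, 7300 genes were called, with 6 among the 10, 3 among the other selenoproteins and 3 among the other incorporation genes. Same-numbered libraries had correlations of deviations of 0.0935, -0.0481 and 0.0402, so the numbers were not taken to pair them.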
